A study of Mus musculus with 10 samples.

Results

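Epidermal barrier genes for ceramide and lipoxygenase enzymes were followed in lesional and uninvolved mouse skin. The set holds 9 genes, Alox12b, Aloxe3, Cers3, Elovl4, Abca12, Ugcg, Smpd1, Pnpla1 and Cyp4f39, of 24358 gene symbols in the deposited tables. They were chosen by name from their known roles, with earlier results of these data known. All 9 were found under those symbols and all 9 passed the filter on low counts. RNA from 10 full-thickness biopsies of dorsal skin was sequenced, 1 of lesional and 1 of uninvolved skin from each of 5 C57Bl/6 mice that carry the label IL-17C+, which stands for an interleukin-17C transgene. For the libraries labelled IL-17C+KO (mice 2392 and 2465) the label adds a knockout, which the title of the series gives as interleukin-6 (Il6), and for those labelled IL-17C+ (mice 2237, 2275 and 2296) it adds none. Il6 counts went against these labels, as given with the library values. No mice without the transgene were analysed here, and the sources do not name the promoter that drives it. The age at death was 10 or 14 weeks and is not tied to single mice, so age and genotype cannot be told apart.

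Lipids between the dead cells of the stratum corneum keep water in the body, and acylceramides are their most specialised part. Elovl4 makes the ultra-long-chain fatty acids that these ceramides need, Cyp4f39 is the mouse counterpart of the human fatty acid omega-hydroxylase CYP4F22, and Cers3 joins such fatty acids to a sphingoid base. Pnpla1 adds linoleate to the omega-hydroxyl end, Ugcg attaches glucose, and the transporter Abca12 loads glucosylceramides into lamellar granules. Smpd1, acid sphingomyelinase, releases ceramide from sphingomyelin. The lipoxygenases Alox12b and Aloxe3 act in turn on the linoleate of acylceramides, a step that comes before the lipids are bound to the corneocyte surface. Loss of ABCA12, ALOX12B, ALOXE3, CERS3, PNPLA1 or CYP4F22 causes ichthyosis in people.

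The 9 genes lie on chromosomes 1 (Abca12), 4 (Ugcg), 7 (Cers3 and Smpd1), 9 (Elovl4), 11 (Alox12b and Aloxe3) and 17 (Pnpla1 and Cyp4f39) of GRCm38. Aloxe3 and Alox12b are neighbours on the plus strand of chromosome 11, from 69125896 to 69149115 and from 69156989 to 69169792, with 7873 bases between them. In the GENCODE annotation 644 of the 4837 exonic bases of Pnpla1 are shared with the antisense gene Pnpla1os, so without a stated strand setting its counts are uncertain. Exons of the other 8 genes overlap no other annotated gene.

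Promoter sequence is shown for 4 genes whose 250 bases before the RefSeq start (GRCm38.p6) hold no annotated exon. Abca12 and Cyp4f39 are shown because their levels moved together across the libraries, Elovl4 because it was the most abundant of the set and Smpd1 because its level varied least. Each window reads 5′ to 3′ on the strand of the gene, and capitals mark the GC box, GGGCGG on either strand.
Abca12 (chr1:71414911-71415160, minus strand): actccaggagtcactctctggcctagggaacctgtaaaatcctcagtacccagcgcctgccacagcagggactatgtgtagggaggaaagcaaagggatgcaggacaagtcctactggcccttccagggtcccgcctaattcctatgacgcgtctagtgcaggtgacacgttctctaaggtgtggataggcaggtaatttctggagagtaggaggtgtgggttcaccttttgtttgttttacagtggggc
Cyp4f39 (chr17:32452473-32452722, plus strand): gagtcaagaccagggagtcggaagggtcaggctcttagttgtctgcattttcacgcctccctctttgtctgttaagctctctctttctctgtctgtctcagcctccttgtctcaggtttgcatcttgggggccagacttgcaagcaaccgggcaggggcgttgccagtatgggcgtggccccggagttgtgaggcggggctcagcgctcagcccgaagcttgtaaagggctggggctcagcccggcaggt
Elovl4 (chr9:83806306-83806555, minus strand): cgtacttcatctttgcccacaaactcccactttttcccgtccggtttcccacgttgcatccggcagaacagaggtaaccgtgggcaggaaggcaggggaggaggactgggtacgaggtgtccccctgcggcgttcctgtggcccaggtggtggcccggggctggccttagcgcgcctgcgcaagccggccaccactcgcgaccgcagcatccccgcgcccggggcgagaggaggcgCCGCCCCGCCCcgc
Smpd1 (chr7:105554110-105554359, plus strand): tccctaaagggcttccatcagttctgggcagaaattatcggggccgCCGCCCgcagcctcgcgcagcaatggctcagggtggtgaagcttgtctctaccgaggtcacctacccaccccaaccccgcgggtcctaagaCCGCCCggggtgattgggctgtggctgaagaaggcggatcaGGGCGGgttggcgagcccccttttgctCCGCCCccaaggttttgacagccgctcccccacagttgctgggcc

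The Abca12 and Cyp4f39 windows held none of 4 motifs searched on both strands, which were the GC box, the AP-1 motif (TGANTCA), the core site of grainyhead factors (ACCGGT) and the TATA box (written TATAAA). The Elovl4 window held 2 GC boxes and the Smpd1 window 4. Of the 8 members with a window in the RefSeq table, 4 held a GC box (Alox12b, Elovl4, Ugcg and Smpd1), against 32.7% of 32851 promoter windows of the same length. None of the 8 held any of the other motifs, of which the AP-1 motif occurred in 6.75% of all windows, the grainyhead core in 1.86% and the TATA box in 12.4%. GC content was 53.2% for Abca12, 59.6% for Cyp4f39, 69.6% for Elovl4 and 64.8% for Smpd1, beside a median of 52.4% over all windows. A match describes the letters of the window only.

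Libraries held 21056850 to 31072491 counts, so that a count of 0 allows up to 3 counts, or 0.0965 to 0.142 CPM (counts scaled to library size), where this limit covers counting error only. Every member had at least 212 counts in every library. Il6 went against the genotype label, with 315 and 300 counts in lesional and 71 and 55 in uninvolved libraries labelled IL-17C+KO, against 26, 18 and 69 in lesional and 9, 4 and 6 in uninvolved libraries labelled IL-17C+. Genotypes are therefore named by label throughout. Whether the labels were exchanged or transcripts of a deleted Il6 allele were still counted was not tested. With exchanged labels every difference between genotypes would change sign, and the lesional results of the labels would trade places. Il17c, the gene of the transgene, had 535 to 15180 CPM over the 10 libraries. It had 2347 and 10880 CPM in lesional and 1901 and 535 CPM in uninvolved skin of mice 2392 and 2465. In IL-17C+ mice 2237, 2275 and 2296 it had 10600, 10860 and 12470 CPM in lesional and 15180, 1416 and 5396 CPM in uninvolved skin. The part of this level in the member values was not tested. Keratinocyte markers were present in every library, with the summed level of 15 differentiation markers between 8033 and 32060 CPM and that of 10 basal markers between 5441 and 14360 CPM. The summed markers of stressed keratinocytes, fibroblasts and neutrophils were higher in lesional than in uninvolved skin of all 5 mice, and those of skeletal muscle were lower in 4 of 5. Muscle sums were 5842 and 995 CPM in lesional and 35480 and 58690 CPM in uninvolved skin labelled IL-17C+KO. Under IL-17C+ they were 8290, 4926 and 3719 CPM in lesional and 8222, 42160 and 14950 CPM in uninvolved skin. The part of muscle content in the member values was not tested. The stressed keratinocyte and neutrophil lists share S100a8 and S100a9. In mouse 2237 the neutrophil sums were close, at 2266 CPM in lesional and 2184 CPM in uninvolved skin. These biopsies are bulk tissue, in which fewer cells of a type and less RNA per cell cannot be told apart.

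Levels were first compared between genes on the deposited FPKM scale, which is per transcript length. Elovl4 was the most abundant, with a median of 418 FPKM and a range of 203 to 844 over the 10 libraries, and its lowest library lay above the highest library of any other member. After it came Smpd1 (median 56.0 FPKM), Cers3 (41.5), Alox12b (36.2), Cyp4f39 (33.5), Ugcg (24.4), Abca12 (18.7), Pnpla1 (11.7) and Aloxe3 (8.20). Below Elovl4 the range of each gene overlapped that of the next. Within single libraries Smpd1 was above Cers3 in 10 of 10 libraries and Abca12 above Pnpla1 in 10 of 10, whereas Cers3 was above Alox12b in 4 of 10. The lipoxygenase pair differed, since Alox12b stood between 27.7 and 93.8 FPKM and Aloxe3 between 3.71 and 13.3 FPKM.

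**Figure D1:**
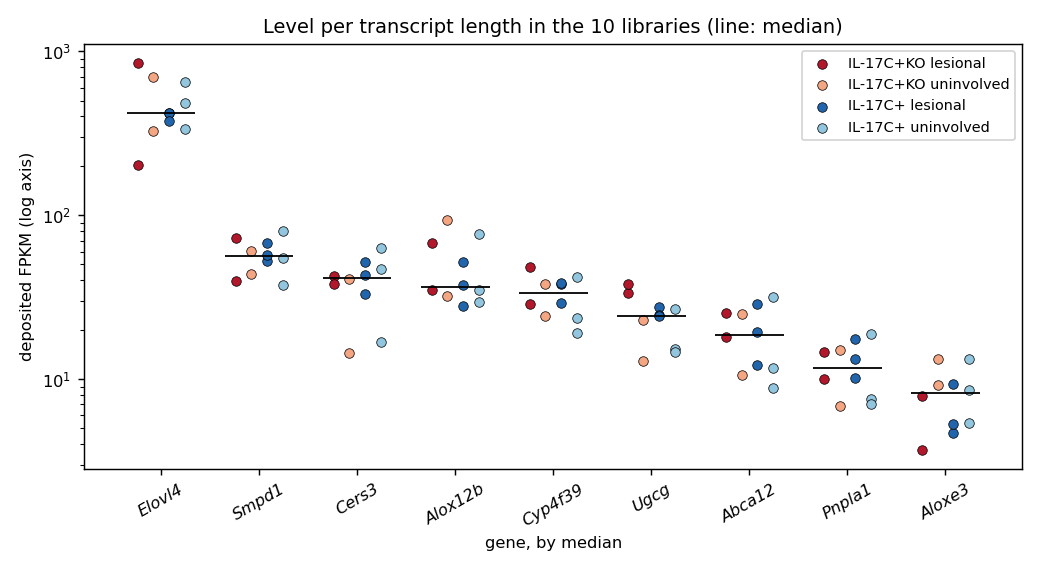
Deposited FPKM (log axis) of the 9 genes in 10 libraries, coloured by genotype label and skin type, with genes ordered by median and a line at the median. Elovl4, at 203 to 844 FPKM, sits above all other members, whose ranges overlap from one gene to the next.

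The question for skin type was whether these genes differ between lesional and uninvolved skin of the same mouse. No member passed the threshold of an adjusted p under 0.05 in either genotype, with edgeR's quasi-likelihood test and Benjamini-Hochberg adjustment over 16083 genes. Over all genes, the share called was 0.0124% in the mice labelled IL-17C+KO and 0% in the IL-17C+ mice. DESeq2, used as an alternative, called 1157 genes under IL-17C+KO, 247 under IL-17C+ and 0 of the 9 members. Among the members the values closest to the threshold were those of Aloxe3, with less RNA in lesional skin, and of Ugcg, with more. At an unadjusted p under 0.05, 1 of 9 members was lower in lesional skin labelled IL-17C+KO (Aloxe3), where 7.31% of all genes were, and 0 of 9 were higher, where 6.16% were. That count depended on the setting, since Aloxe3 was above 0.05 with RLE scaling, on FPKM, without the mouse block and without mouse 2392 or 2465, and Ugcg was below it with RLE scaling, on FPKM, without the mouse block, with no filter on low counts, with DESeq2 and without mouse 2392 or 2296. In IL-17C+ mice 0 of 9 members reached it in either direction, where 6.41% of all genes did. The median log2 change of the 9 was 0.08 in mice labelled IL-17C+KO, beside 0.00 over all genes, and 0.07 in IL-17C+ mice, beside -0.02.

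**Figure D2:**
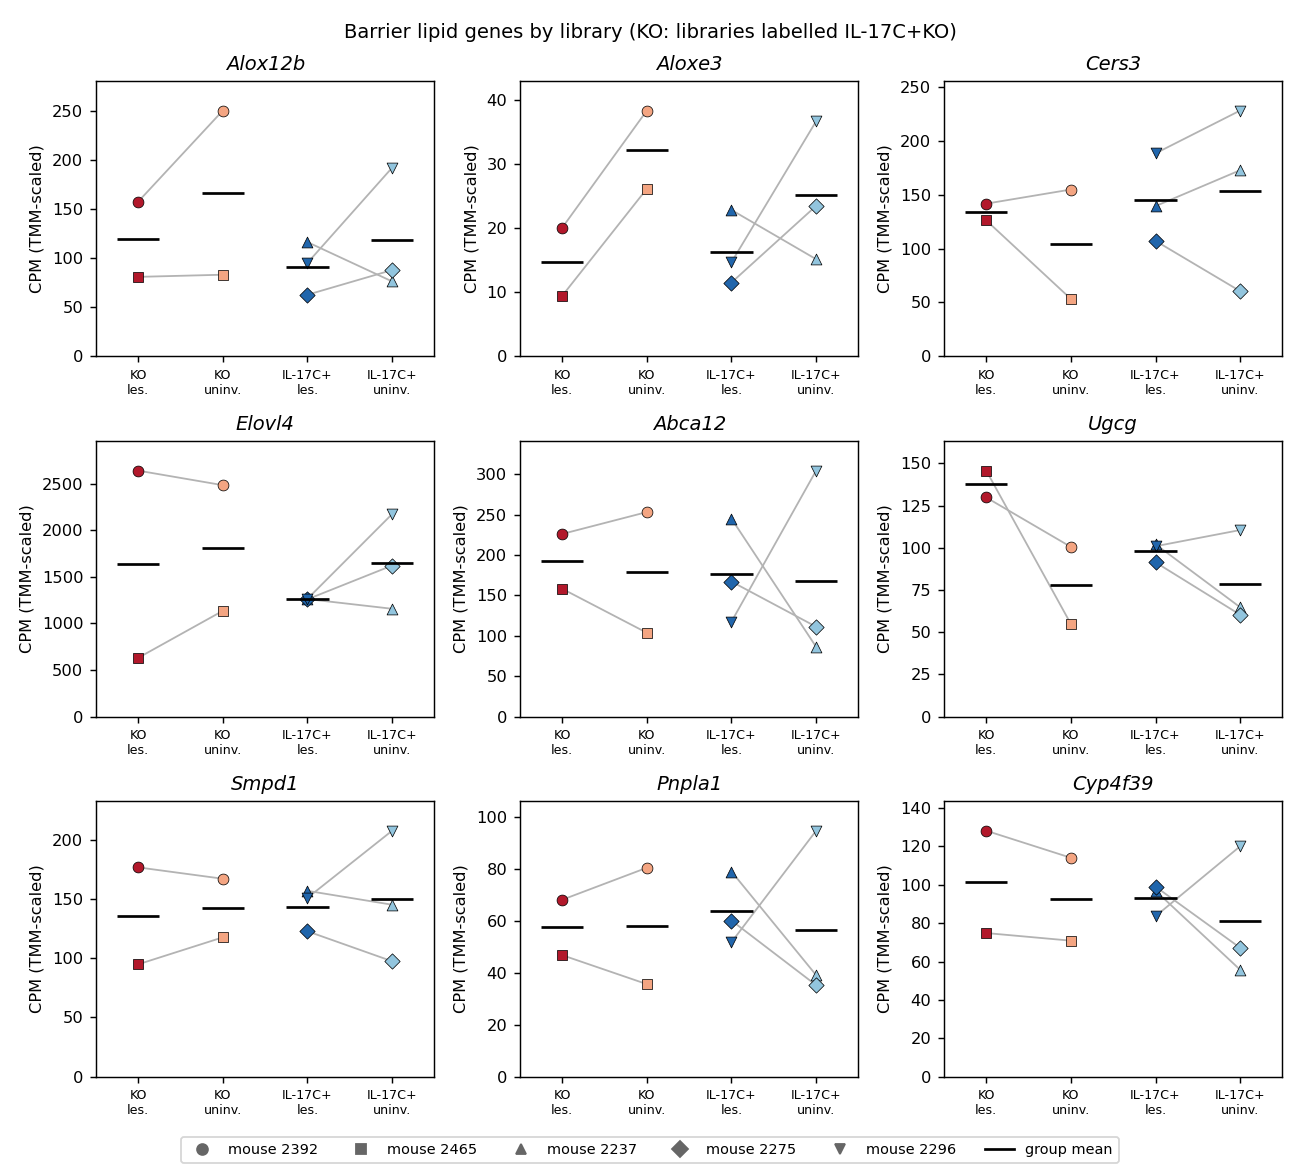
TMM-scaled CPM of each gene in the 10 libraries, with 1 panel per gene, lesional left of uninvolved skin, a symbol per mouse, grey lines joining the biopsies of a mouse and black bars at group means. Lines for Aloxe3 descend to the lesional side in 4 of 5 mice and those for Ugcg climb to it in 4 of 5, while Abca12 and Pnpla1 cross.

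Among the enzymes that supply fatty acids, Elovl4 had 2638 CPM (mouse 2392) and 630 CPM (2465) in lesional skin labelled IL-17C+KO, against 2482 and 1134 CPM in uninvolved skin of the same mice. In lesional skin of IL-17C+ mice it had 1260, 1258 and 1263 CPM (mice 2237, 2275 and 2296), against 1156, 1620 and 2172 CPM in uninvolved skin. The 3 lesional IL-17C+ libraries were nearly equal, and lesional and uninvolved ranges overlapped. The log2 change was -0.38 ± 0.44 (SE, 2 mice; adjusted p = 0.776) under the label IL-17C+KO and -0.34 ± 0.35 (SE, 3 mice; adjusted p = 0.863) under IL-17C+. For lesional changes the SE comes from 1 fit of all 10 libraries, not from the spread between the mice counted beside it. The summed sebaceous gland markers, which include Scd1, Awat1 and Elovl3, were also highest and lowest in the lesional libraries of mice 2392 (8957 CPM) and 2465 (1563 CPM), the same libraries in which Elovl4 was highest and lowest. Their part in the Elovl4 values was not tested.

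Cyp4f39 had 128 and 74.9 CPM in lesional and 114 and 70.9 CPM in uninvolved skin of mice 2392 and 2465. In IL-17C+ mice it had 96.9, 99.1 and 83.6 CPM in lesional and 55.7, 67.2 and 120 CPM in uninvolved skin (mice 2237, 2275 and 2296). It was higher in lesional skin of 4 mice and lower in mouse 2296, and the ranges overlapped. Its log2 change was 0.12 ± 0.37 (SE, 2 mice) in mice labelled IL-17C+KO and 0.28 ± 0.31 (SE, 3 mice) in IL-17C+ mice.

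The ceramide synthase gene Cers3 had 142 and 126 CPM in lesional skin labelled IL-17C+KO, against 155 and 53.3 CPM in uninvolved skin. In IL-17C+ mice the values were 139, 107 and 188 CPM in lesional and 173, 60.5 and 228 CPM in uninvolved skin. Only mice 2465 and 2275, whose uninvolved libraries had the lowest values of all 10, had more Cers3 in lesional skin. This was the widest spread of the set, with 4.28-fold between the lowest and the highest library, against 2.19-fold for Smpd1. On the log2 scale Cers3 differed by 0.56 ± 0.46 (SE, 2 mice; adjusted p = 0.664) under IL-17C+KO and 0.07 ± 0.37 (SE, 3 mice; adjusted p = 0.970) under IL-17C+.

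Pnpla1 had 68.2 and 46.8 CPM in lesional and 80.5 and 35.7 CPM in uninvolved skin labelled IL-17C+KO, and 79.1, 60.2 and 51.8 CPM in lesional and 39.1, 35.3 and 94.8 CPM in uninvolved skin labelled IL-17C+. Abca12 had 226 and 158 CPM in lesional and 253 and 104 CPM in uninvolved skin labelled IL-17C+KO, and 245, 167 and 118 CPM in lesional and 86.3, 111 and 305 CPM in uninvolved skin labelled IL-17C+. Both genes were higher in lesional skin of mice 2465, 2237 and 2275 and lower in that of mice 2392 and 2296, with overlapping ranges. In mice labelled IL-17C+KO the log2 changes were 0.08 ± 0.49 for Pnpla1 and 0.22 ± 0.64 for Abca12 (SE, 2 mice). In IL-17C+ mice they were 0.32 ± 0.41 for Pnpla1 and 0.27 ± 0.56 for Abca12 (SE, 3 mice). One mouse moved these values: without mouse 2296 the change in IL-17C+ mice was 1.06 for Abca12, 0.91 for Pnpla1 and 0.69 for Cyp4f39, each with an unadjusted p under 0.05 and an adjusted p of 0.546 by edgeR. Without mouse 2237 it was -0.39 for Abca12, -0.05 for Pnpla1 and 0.02 for Cyp4f39, and without mouse 2275 it was 0.07, 0.08 and 0.14 for the same genes.

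Ugcg, glucosylceramide synthase, had 130 and 146 CPM in lesional skin of mice 2392 and 2465, against 101 and 54.8 CPM in their uninvolved skin. In IL-17C+ mice it had 102, 91.4 and 101 CPM in lesional skin, against 64.8, 60.3 and 111 CPM in uninvolved skin (mice 2237, 2275 and 2296). It was higher in lesional skin of 4 mice and lower in mouse 2296, whose uninvolved library was the highest uninvolved one, so the ranges overlapped. The log2 change was 0.89 ± 0.37 in mice labelled IL-17C+KO (SE, 2 mice; 95% interval 0.00 to 1.78; edgeR adjusted p = 0.372) and 0.38 ± 0.30 in IL-17C+ mice (SE, 3 mice; interval -0.34 to 1.1; adjusted p = 0.832). Under IL-17C+KO this is a 1.85-fold level. Over the other settings and left-out mice the change under IL-17C+KO lay between 0.37 and 1.40, with adjusted p between 0.216 and 1. Without mouse 2465 it was 0.37. In IL-17C+ mice the range was 0.23 to 0.64. The summed stress keratinocyte markers were 28600 CPM in lesional and 1425 CPM in uninvolved skin of mouse 2465, and 16910 and 5219 CPM in mouse 2392, and their part in the Ugcg values was not tested.

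Smpd1, which releases ceramide by another route, was the steadiest member. It had 177 and 94.7 CPM in lesional and 167 and 118 CPM in uninvolved skin labelled IL-17C+KO, and 157, 123 and 151 CPM in lesional and 145, 97.3 and 207 CPM in uninvolved skin labelled IL-17C+. Its log2 change was -0.12 ± 0.31 in mice labelled IL-17C+KO, with a 95% interval of -0.86 to 0.63, and 0.00 ± 0.26 in IL-17C+ mice, with an interval of -0.62 to 0.61. Levels between 0.651-fold and 1.53-fold in IL-17C+ mice lay within the interval.

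Both lipoxygenase genes had less RNA in lesional skin of 4 of 5 mice, though neither passed the threshold. Aloxe3 had 20.1 and 9.45 CPM in lesional skin labelled IL-17C+KO, against 38.3 and 26.1 CPM in uninvolved skin of mice 2392 and 2465, a pair of groups that did not overlap. With so few libraries this held for 54.4% of all genes, and for 2 of 9 members (Aloxe3 and Ugcg). In IL-17C+ mice it had 22.8, 11.5 and 14.7 CPM in lesional and 15.2, 23.5 and 36.6 CPM in uninvolved skin, where the groups overlapped through mouse 2237. The log2 change was -1.20 ± 0.50 in mice labelled IL-17C+KO (SE, 2 mice; 95% interval -2.39 to -0.01; edgeR adjusted p = 0.370), a 0.436-fold level. In IL-17C+ mice it was -0.60 ± 0.42 (SE, 3 mice; interval -1.6 to 0.40; adjusted p = 0.824). Over the other settings and left-out mice its change under IL-17C+KO lay between -1.47 and -0.90, with adjusted p between 0.161 and 1.

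Alox12b had 158 and 81.2 CPM in lesional and 251 and 83.4 CPM in uninvolved skin labelled IL-17C+KO. In IL-17C+ mice it had 117, 62.9 and 95.4 CPM in lesional and 76.5, 88.1 and 193 CPM in uninvolved skin. Like Aloxe3 it was lower in lesional skin of all mice but 2237, with a difference of only -0.04 log2 units in mouse 2465. For Alox12b the log2 change was -0.35 ± 0.43 (SE, 2 mice; adjusted p = 0.789) under IL-17C+KO and -0.30 ± 0.36 (SE, 3 mice; adjusted p = 0.876) under IL-17C+. Without mouse 2237 the IL-17C+ change was -0.75 for Alox12b and -1.17 for Aloxe3, both with an unadjusted p under 0.05 by edgeR and adjusted p of 0.472 and 0.320. Without mouse 2296 it was 0.08 for Alox12b and -0.20 for Aloxe3, and without mouse 2275 it was -0.20 for Alox12b and -0.36 for Aloxe3.

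**Figure D3:**
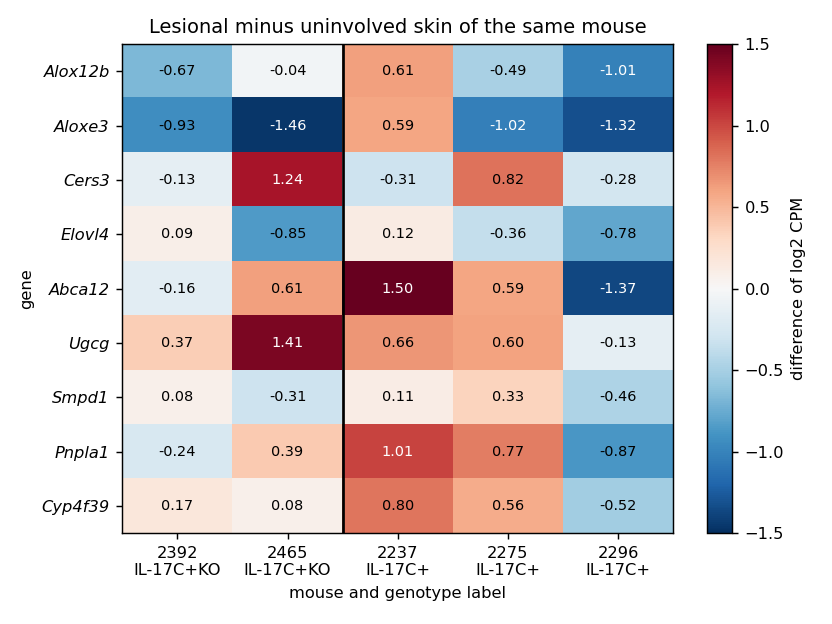
Difference of log2 CPM, lesional minus uninvolved skin of the same mouse, for the 9 genes (rows) in the 5 mice (columns), with red for higher and blue for lower in lesional skin. Mouse 2296 has 9 of 9 genes lower and mouse 2237 has 8 of 9 higher.

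Mice of 1 label differed from each other in the direction of the set. In mouse 2296 all 9 members were lower in lesional skin, with a median difference of -0.78 log2 units, whereas in mouse 2237 8 of 9 were higher (median 0.61) and in mouse 2275 6 of 9 (median 0.56). These 3 mice carry the same label. In mice 2392 and 2465, 4 and 5 of the 9 were higher, with medians of -0.13 and 0.08. The median difference over all genes was between -0.02 and 0.00 in every mouse. No member moved the same way in all 5 mice, where 9.13% of all genes were higher and 9.73% lower in all 5, and for none were the lesional and uninvolved ranges apart, where 7.25% of all genes were. The uninvolved library of mouse 2296 held the highest value of the 10 for Cers3, Abca12, Smpd1 and Pnpla1, and that of mouse 2392 for Alox12b and Aloxe3. The summed differentiation markers were 14580 CPM in lesional and 32060 CPM in uninvolved skin of mouse 2296, and 27370 and 19190 CPM in mouse 2237. Their part in these differences was not tested.

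The members were therefore also set against keratinocyte markers of the same library, as a description. Relative to the summed basal markers, such as Krt5 and Krt14, Alox12b was lower in lesional skin of 5 of 5 mice, by -1.0 to -0.15 log2 units, and Aloxe3 in 5 of 5, by -2.43 to -0.16. Of all genes, 14.2% were lower in all 5 mice on that scale. Relative to the summed differentiation markers, such as Krt10 and Lor, Ugcg was higher in 5 of 5 mice (0.06 to 2.23), as were Pnpla1 (0.23 to 1.21) and Cyp4f39 (0.02 to 0.90), where 6.98% of all genes were. The smallest differences were near 0, and the remaining members went both ways among the mice on the scale concerned.

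**Figure D4:**
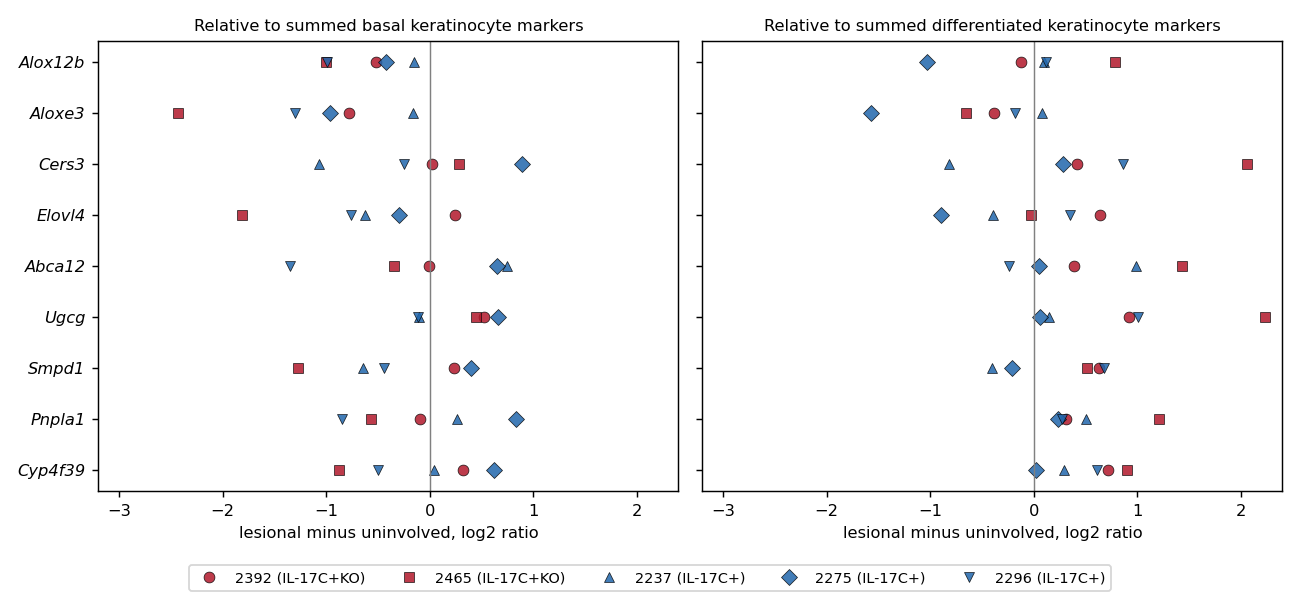
Lesional minus uninvolved log2 ratio of each gene to the summed basal (left) or differentiated (right) keratinocyte markers of the same library, with a symbol per mouse, red for IL-17C+KO and blue for IL-17C+ labels. All 5 mice lie below 0 for Alox12b and Aloxe3 on the left, and above 0 for Ugcg, Pnpla1 and Cyp4f39 on the right.

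Ratios between members were taken within each library. Per 100 counts of Alox12b, Aloxe3 had 12.7 and 11.6 counts in lesional and 15.3 and 31.4 in uninvolved skin labelled IL-17C+KO, and 19.6, 18.3 and 15.4 in lesional and 19.8, 26.6 and 19.0 in uninvolved skin labelled IL-17C+. The ratio was lower in lesional skin of 5 of 5 mice, by as little as 0.02 log2 units in mouse 2237. Ugcg per 100 counts of Smpd1 was 73.5 and 154 in lesional and 60.2 and 46.7 in uninvolved skin labelled IL-17C+KO, and 65.2, 74.5 and 66.9 in lesional and 44.7, 62.0 and 53.3 in uninvolved skin labelled IL-17C+. It was higher in lesional skin of 5 of 5 mice, and lesional and uninvolved libraries did not overlap, as for 4 of 36 member pairs (11.1%) and 8.19% of all pairs of tested genes. These pairs were singled out after their values were seen. Of 36 member pairs, 10 had a ratio that moved the same way in all 5 mice, or 27.8%, which is near the 21.3% among all pairs of tested genes.

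Some members varied together from library to library. Across the 10 libraries from 5 mice, Pearson's r of log2 CPM was 0.95 between Abca12 and Pnpla1, 0.91 between Abca12 and Cyp4f39 and 0.89 between Pnpla1 and Cyp4f39. Aloxe3 and Ugcg had the lowest, -0.22, and the median of the 36 pairs was 0.655. These values describe libraries that share mice and scaling, and no test was made. The genes most like the mean profile of the set, among 10368 genes with a mean of at least 10 CPM, were Ceacam19 (r = 0.97), Map2k4 (0.957), Pld2 (0.943), AA986860 (0.939), Mfsd5 (0.938), Mettl16 (0.928), Def8 (0.925) and Vps54 (0.922).

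Genotype was compared next, within lesional and within uninvolved skin, with 1 library per mouse. No member had an adjusted p under 0.05, and neither did any of 15691 genes in lesional skin (0%) or of 15568 in uninvolved skin (0%) by edgeR, while DESeq2 called 213 and 11 genes and 0 members. Ugcg had the smallest p of the set. Its lesional libraries labelled IL-17C+KO, at 130 and 146 CPM, lay above all 3 labelled IL-17C+, at 91.4 to 102 CPM, and averaged 138 ± 11.3 CPM (SD, n = 2) against 98.1 ± 5.88 CPM (SD, n = 3). Of all genes, 25% had lesional libraries of the 2 labels that did not overlap, and of the members Ugcg alone. The log2 difference was 0.52 ± 0.16 (95% interval 0.13 to 0.91; edgeR adjusted p = 0.585), a 1.43-fold level. It was 1 of 9 members higher at an unadjusted p under 0.05, where 4.77% of all genes were. With 1 mouse left out or another setting the difference lay between 0.40 and 0.60, with adjusted p between 0.186 and 0.998, and the unadjusted p was above 0.05 without mouse 2237, 2275 or 2465. In uninvolved skin the difference of Ugcg was 0.00 ± 0.41 (interval -0.97 to 0.97; adjusted p = 1).

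Cell type markers differed between the labels in the same libraries. In lesional skin 15 of 15 differentiation markers had a negative log2 difference (median -0.53). So did 12 of 12 anagen hair follicle markers (median -2.22), and Tchh is in both lists. Of the skeletal muscle markers, 15 of 15 were also negative there (median -0.95). A positive difference was seen for 10 of 10 fibroblast (median 0.99), 10 of 10 endothelial (median 0.86) and 10 of 10 macrophage markers (median 0.79). The median over all genes was 0.01. Markers of 1 list are not independent, and several summed levels overlapped between labels. Lesional macrophage sums were 2178 and 906 CPM under IL-17C+KO against 908, 629 and 1365 CPM under IL-17C+. Fibroblast sums were 8920 and 30070 against 6053, 13450 and 8365 CPM, and differentiation sums 17260 and 8033 against 27370, 19090 and 14580 CPM. Summed endothelial markers were 567 and 499 CPM in lesional skin labelled IL-17C+KO, against 228, 357 and 318 CPM in that labelled IL-17C+. Summed anagen markers were 26.7 and 2346 CPM in lesional and 53.0 and 40.4 CPM in uninvolved skin labelled IL-17C+KO, and 7500, 8340 and 1120 CPM in lesional and 10550, 33.5 and 2071 CPM in uninvolved skin labelled IL-17C+. In uninvolved skin 15 of 15 skeletal muscle markers had a positive difference (median 1.04), and 12 of 12 anagen markers a negative one (median -6.71). Of these anagen markers, 11 had an unadjusted p under 0.05 by edgeR, where 3.73% of all genes had one in either direction. Uninvolved skin of IL-17C+ mouse 2275, at 33.5 CPM, was as low as that labelled IL-17C+KO. The part of these markers in the values of Ugcg and the other members was not tested.

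The other 8 members differed between genotype labels by -0.12 to 0.41 log2 units in lesional skin and by -0.55 to 0.51 in uninvolved skin, with all intervals spanning 0. The direction for Elovl4 in lesional skin depended on 1 mouse, being -0.97 without mouse 2392 (adjusted p = 0.408 by edgeR) and 1.06 without mouse 2465 (adjusted p = 0.321), whose lesional libraries had its highest and lowest level. In uninvolved skin 0 of 9 members had an unadjusted p under 0.05, where 3.73% of all genes had. The difference of the lesional effects, IL-17C+KO minus IL-17C+, was -0.60 ± 0.64 for Aloxe3 (interval -2.14 to 0.94) and 0.51 ± 0.48 for Ugcg (interval -0.63 to 1.65), and the adjusted p was 1 for all 9 by edgeR. None of the 9 had an unadjusted p under 0.05 for it, where 1.17% of all genes had, and the share called was 0%.

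**Figure D5:**
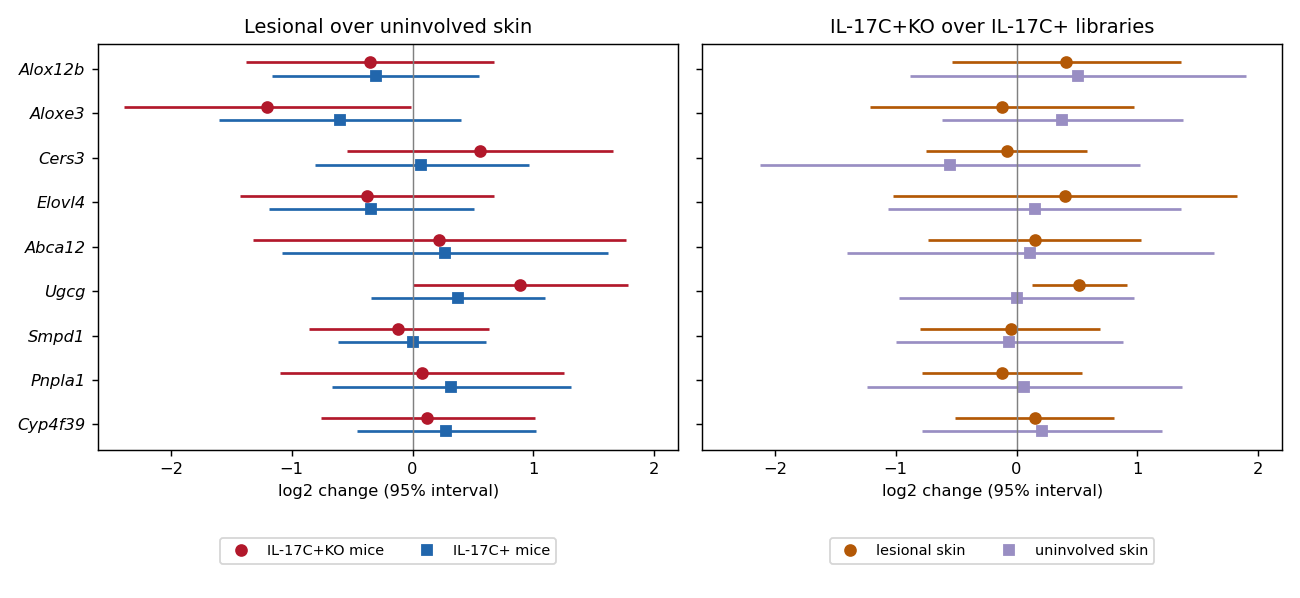
Log2 changes of the 9 genes with 95% intervals from edgeR, for lesional over uninvolved skin in each genotype (left) and for IL-17C+KO over IL-17C+ labels in each skin type (right). Most intervals span 0, with Aloxe3 (-2.39 to -0.01) in lesional skin labelled IL-17C+KO and Ugcg (0.13 to 0.91) between genotypes in lesional skin lying to one side.

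Neighbouring steps of the pathway gave the same count of calls. Of 6 lists of genes for ceramide synthesis, fatty acid elongation, ceramide turnover, the lipid envelope, other lipoxygenases and barrier transcription factors, none had a gene with an adjusted p under 0.05 by edgeR in the 3 lesional comparisons. DESeq2 results were looked up only for the list genes named here, up to 3 per list with the smallest p by edgeR. Of these, DESeq2 passed Degs2 (adjusted p = 0.0086), Lipk (0.00527), Alox12 (0.0098) and Alox12e (0.0245) under IL-17C+KO and Sphk1 (0.0478) under IL-17C+. Over all 16083 genes DESeq2 called 1157 under IL-17C+KO and 247 under IL-17C+. In the ceramide synthesis list 16 of 17 genes were tested, and at an unadjusted p under 0.05 1 was higher and 0 were lower in lesional skin labelled IL-17C+KO, and 1 was higher and 2 were lower in that labelled IL-17C+. Over all genes the shares were 6.16% higher and 7.31% lower under IL-17C+KO and 3.54% higher and 2.87% lower under IL-17C+. The higher one under both labels was Degs2, which makes phytoceramides and had 26.9 and 19.9 CPM in lesional against 6.30 and 3.42 CPM in uninvolved skin labelled IL-17C+KO, and 24.4, 18.7 and 37.6 CPM against 21.6, 2.27 and 15.7 CPM in IL-17C+ mice. Degs2 was higher in lesional skin of 5 of 5 mice, as were 9.13% of all genes, with log2 changes of 2.32 ± 0.65 (adjusted p = 0.245) under IL-17C+KO and 1.45 ± 0.55 (adjusted p = 0.755) under IL-17C+. The IL-17C+ change was 0.72 without mouse 2275 and 2.12 without mouse 2237. The lower ones were Kdsr, which reduces the first sphingoid base, at -0.62 ± 0.24, and the ceramide synthase gene Cers5, at -0.58 ± 0.23, both lower in 5 of 5 mice, as were 9.73% of all genes.

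Of 20 genes for ceramide turnover, Sphk1, sphingosine kinase, had the smallest p in IL-17C+ mice. It had 53.1 and 46.6 CPM in lesional against 82.3 and 67.5 CPM in uninvolved skin labelled IL-17C+KO, and 52.9, 42.3 and 50.5 CPM against 82.0, 79.8 and 99.3 CPM in IL-17C+ mice. All lesional libraries were below all uninvolved ones, as for the 7.25% of genes whose ranges do not overlap. Its log2 change was -0.58 ± 0.27 in mice labelled IL-17C+KO (adjusted p = 0.408) and -0.84 ± 0.22 in IL-17C+ mice (adjusted p = 0.620). Sgms1, which makes sphingomyelin, was also lower in 5 of 5 mice, as were 9.73% of all genes. Its changes were -0.86 ± 0.31 under IL-17C+KO and -0.53 ± 0.26 under IL-17C+, and -0.34 under IL-17C+ without mouse 2275. In mouse 2237 it was nearly equal, at 55.7 CPM in lesional and 56.1 CPM in uninvolved skin. In the fatty acid list the median log2 change was -0.23 under IL-17C+KO and -0.22 under IL-17C+, and 1 of 16 tested genes, Elovl5 under IL-17C+KO (-1.0 ± 0.40), had an unadjusted p under 0.05, which as a share is below the 7.31% of all genes lower there. Its change was -0.42 without mouse 2465 and -1.58 without mouse 2392.

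In the list of 14 genes for acylceramides and the corneocyte lipid envelope the median was -0.31 under IL-17C+KO and -0.42 under IL-17C+, beside 0.00 and -0.02 over all genes. The acid lipase gene Lipk had 34.7 and 11.2 CPM in lesional against 77.7 and 38.6 CPM in uninvolved skin labelled IL-17C+KO, and 56.9, 22.9 and 30.3 CPM against 94.3, 39.8 and 87.1 CPM in IL-17C+ mice. It was lower in 5 of 5 mice, as were 9.73% of all genes, with log2 changes of -1.47 ± 0.34 under IL-17C+KO (adjusted p = 0.222) and -1.02 ± 0.28 under IL-17C+ (adjusted p = 0.631). Its neighbours in the family, Lipm and Lipn, were lower in 5 of 5 mice too, by -0.77 to -0.49 log2 units, though Lipn was at -0.10 in IL-17C+ mice without mouse 2296.

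Of 6 other genes in the lipoxygenase list, 1 was higher and 2 were lower in lesional skin labelled IL-17C+KO at an unadjusted p under 0.05, where 6.16% of all genes were higher and 7.31% lower, and 0 were higher or lower in that labelled IL-17C+. Alox12, the platelet-type enzyme, had 2.75 and 2.99 CPM in lesional against 9.83 and 10.9 CPM in uninvolved skin labelled IL-17C+KO (log2 change -1.85 ± 0.48, adjusted p = 0.237). Its change in IL-17C+ mice was -0.81 ± 0.39 and -0.36 without mouse 2296, and it was lower in 5 of 5 mice, as were 9.73% of all genes. Alox12e, an epidermal lipoxygenase of the mouse, had 14.7 and 16.8 CPM in lesional against 47.3 and 51.7 CPM in uninvolved skin labelled IL-17C+KO, but 103, 166 and 16.8 CPM against 35.4, 96.7 and 22.3 CPM in IL-17C+ mice. The changes were -1.65 ± 0.47 under IL-17C+KO and 0.64 ± 0.39 under IL-17C+, where leaving out mouse 2237 gave 0.19 and mouse 2296 1.17 in the IL-17C+ mice, and their difference was -2.30 ± 0.61 (edgeR adjusted p = 1). Alox5ap, which presents arachidonate to the leukocyte enzyme, had changes of 1.52 ± 0.60 under IL-17C+KO (0.87 without mouse 2392) and 0.52 ± 0.50 under IL-17C+, beside summed neutrophil markers that were higher in lesional skin of 5 of 5 mice, whose part was not tested. Of 18 barrier transcription factors, 0 were higher and 1 was lower (Gata3) in lesional skin labelled IL-17C+KO at an unadjusted p under 0.05. In that labelled IL-17C+, 1 was higher (Cebpb) and 0 were lower. Over all genes the shares were 6.16% higher and 7.31% lower under IL-17C+KO and 3.54% higher and 2.87% lower under IL-17C+. The counts of this list are near these shares. Cebpb was higher in lesional skin of 5 of 5 mice, as were 9.13% of all genes, with log2 changes of 0.51 ± 0.33 under IL-17C+KO and 0.74 ± 0.27 under IL-17C+. The IL-17C+KO change was 0.18 without mouse 2465 and 0.83 without mouse 2392.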

How the data were processed

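RNA from 10 skin biopsies was measured by sequencing, and groups and mouse numbers came from the labels. Per the submitters' processing notes, cutadapt 1.6, TopHat2 2.0.12, HTSeq and Cufflinks 2.2.1 were used with mm10. Settings, annotation and strand are not stated. Per the file headers, the deposited tables give a count and an FPKM value per gene symbol. The deposited count values are whole numbers and were tested, and the deposited FPKM values, scaled by the authors to length and depth, were used for levels between genes and 1 alternative.

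The counts went into edgeR 4.0.16 under R 4.3.3 (filterByExpr by group, TMM, robust quasi-likelihood F tests, Benjamini-Hochberg adjustment over all tested genes, threshold 0.05). The skin types were compared over all 10 libraries, with mouse as blocking factor and a lesional effect per genotype, and a contrast tested whether these effects differ. Separate fits of 5 libraries compared the genotypes in each skin type. Standard errors are the change divided by the root of F, with the spread estimated over all libraries of the fit, and intervals are 95%. CPM are TMM-scaled, and differences per mouse use a prior count of 2. FPKM were tested on log2(FPKM + 1) with limma 3.58.1, and DESeq2 1.42.0 was another alternative. The lesional comparison under IL-17C+ and the genotype comparison in lesional skin were also run on simulated counts. Those had the same spread for every gene, so they do not measure error rates in these biopsies.

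The design pairs the 2 biopsies of a mouse, and their deviations from group means correlated at -0.122 to 0.034. No 2 libraries were identical, and their correlations were 0.837 to 0.986. Members and gene lists were chosen with earlier results of these data known. Named were the members, up to 3 genes per pathway list with the smallest p in either lesional comparison, Il6 and Il17c, and the 8 genes most like the members' mean profile. Coordinates are from GENCODE M21 (GRCm38) and promoters from RefSeq (GRCm38.p6).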

Additional observations from a re-analysis of the deposited data

How the results depend on the processing

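No member was called under any alternative run, in any of the 5 comparisons. Of 225 alternative values of the members with all mice kept, 7 had the direction opposite to the reported value. The other 218 did not, but a reported change of 0.00 could not count as opposite. An example is Smpd1 in lesional skin under IL-17C+, at 0.02 with RLE scaling, 0.10 on FPKM and -0.06 without the mouse block. Without the replicate block, the lesional change was -0.01 for Pnpla1 under IL-17C+KO and -0.09 for Cers3 under IL-17C+, and the difference between genotypes was 0.24 for Elovl4 and 0.03 for Abca12. That fit called 0 genes under IL-17C+KO, where the paired fit called 2, and the block changed no member's call. On log2(FPKM + 1), Smpd1 was 0.06 under IL-17C+KO and the difference between genotypes 0.02 for Elovl4 and 0.04 for Abca12, and the median over all genes moved to 0.11 under IL-17C+KO. The causes were not tested.

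Counts over all genes depended on the tool. DESeq2 called 1157 genes for lesional skin under IL-17C+KO, 247 under IL-17C+, 6 for their difference, and 213 and 11 between genotypes in lesional and uninvolved skin. Under IL-17C+KO, 5 genes were called with no filter on low counts, 1 on FPKM, 0 in the libraries of that label alone, and 0 to 11 with 1 mouse left out. Between genotypes, 1 gene was called in lesional skin with no filter, and 0 to 241 in uninvolved skin with 1 mouse left out, 241 without mouse 2275. A lone remaining mouse of a label was assumed to vary like the others.

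With 1 mouse left out, 49 of 225 member values took the opposite direction, all of comparisons with a reported size of at most 0.56. Some of the 225 leave out a mouse of the other label, which hardly moves a lesional change within a label. Changes reported as 0.00 could not count as opposite. They ranged from -0.17 to 0.24 for Smpd1 in lesional skin under IL-17C+. For Ugcg between genotypes in uninvolved skin the range was -0.51 to 0.37. Log2 changes for lesional skin under IL-17C+KO ranged from -0.13 to 1.24 for Cers3, -0.85 to 0.09 for Elovl4, -0.16 to 0.60 for Abca12, -0.32 to 0.08 for Smpd1, -0.24 to 0.39 for Pnpla1 and -0.03 to 0.90 for B4galt6, and under IL-17C+ from -0.75 to 0.08 for Alox12b, -0.29 to 0.27 for Cers3, -0.39 to 1.06 for Abca12, -0.05 to 0.91 for Pnpla1, -0.12 to 0.90 for Alox5ap and -0.79 to 0.01 for Gata3. The difference of these effects ranged from -0.43 to 0.40 for Alox12b, -0.20 to 1.16 for Cers3, -0.51 to 0.43 for Elovl4, -0.84 to 0.62 for Abca12, -0.01 to 1.03 for Ugcg, -0.36 to 0.08 for Smpd1, -0.83 to 0.13 for Pnpla1 and -0.57 to 0.10 for Cyp4f39. Between genotypes the range was -0.14 to 0.79 for Alox12b, -0.76 to 0.30 for Aloxe3, -0.26 to 0.12 for Cers3, -0.97 to 1.06 for Elovl4, -0.13 to 0.46 for Abca12, -0.56 to 0.30 for Smpd1, -0.41 to 0.10 for Pnpla1 and -0.28 to 0.46 for Cyp4f39 in lesional skin, and -0.51 to 1.09 for Alox12b, -1.53 to 0.02 for Cers3, -0.54 to 0.60 for Elovl4, -0.68 to 0.86 for Abca12, -0.35 to 0.23 for Smpd1, -0.65 to 0.64 for Pnpla1 and -0.19 to 0.59 for Cyp4f39 in uninvolved skin. With 2 and 3 mice per label, intervals of the members span 0.78 to 4.09 log2 units, which limits what could be detected.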
